A study of Mus musculus with 8 samples.

Results

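Innate sensing genes encode the receptors that detect microbial and damage-derived molecules, the inflammasome that activates caspase-1, and the signalling chain that ends in the transcription factor NF-kB. They were followed here in mouse paw skin without keratin 16. The genes were taken from a fixed list of 38 symbols, chosen with earlier results of these data known. A probe set annotated to 1 gene measured 35 of them, among 30663 genes tested in all. The probe set of the kinase gene Irak1 also carries microRNA genes, so Irak1 was not analysed here, and neither were Nfkb1 and Irak4, for which no probe set was named.

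RNA from forepaw skin was measured on single-colour Affymetrix arrays, 1 per mouse. The first group was 4 Krt16 null mice, 2 males and 2 females, labelled as carrying lesions, in which bacterial LacZ replaces the Krt16 coding sequence. The other was 4 wild-type (WT) littermates, also 2 males and 2 females, with skin labelled normal. All were C57Bl/6 mice aged 8 weeks. Every null sample was a lesion and every WT sample was not, so the effects of the deletion and of the lesion cannot be told apart, and whole skin mixes the signal of all its cells. Signals are RMA values in log2 units, and a difference is null minus WT with its standard error (SE), from limma with sex as a covariate. Where a mean is given, it is ± SD with n = 4 mice per genotype. The threshold for a call was an adjusted p of 0.05, by the Benjamini-Hochberg method over all genes. The labels name separate mice. The number of arrays limits the precision, and arrays have no read depth.

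Toll-like receptors (TLRs) span the cell surface or the endosome. Most of them signal through the adaptor MyD88, IRAK kinases and the ubiquitin ligase TRAF6, while TLR3 uses TRIF, the product of Ticam1, and TLR4 can use both. The IKK complex then marks the inhibitor IkB for destruction and frees NF-kB, which in turn switches on genes of its own inhibitors. In the non-canonical branch, the kinase NIK (Map3k14) drives processing of the Nfkb2 product, which partners with RelB. Keratinocytes carry several of these sensors, as do resident macrophages, dendritic cells and infiltrating neutrophils.

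Keratinocyte genes such as Krt5 (12.11 ± 0.09 in null skin, 12.00 ± 0.12 in WT skin) gave strong signal on every array. Krt16 itself was 6.83 to 6.99 on the null arrays. In WT skin it was 8.48 and 8.20 in males, 7.05 in female WT 1 and 9.66 in female WT 2, so female WT 1 lay next to the null arrays and far below the other WT arrays. The difference was -1.45 and not called (adjusted p = 0.0616), and without female WT 1 it was -1.98 (adjusted p = 0.000768). That array also stood apart in S100a8, at 8.70 against 3.25 to 5.21 in the other 3 WT arrays, and the neutrophil granule genes Mpo and Elane were highest on it. Values without female WT 1, a choice made for the markers and other lists after seeing the data, are given beside those that it moves most.

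Among the 35 measured members, 7 rose and 4 fell in null skin. The rises were Nod2, Nfkb2, Tnfaip3, Myd88, Casp4, Traf6 and Tirap. The falls were Tlr7, Irak3, Tlr5 and Ticam1. Differences were small, from 1.17-fold to 1.58-fold, and none of the 11 reached 2-fold. Over all genes tested, 7.06% were called higher and 5.97% lower, 13.0% in all, against 20%, 11.4% and 31.4% of the members. Many genes on the array lay under the negative controls, whose medians were 4.26 to 4.46. When only genes with a mean above that level were fitted, 10 of 27 members (37%) were called, against 24.0% of 17663 genes. Of those members 25.9% were higher, against 12.4% of the genes, and 11.1% were lower, close to 11.5% of the genes. The median difference was 0.06 over the members and 0.01 over all genes. For 15 members the ranges of the 2 genotypes were separate, 10 with null above WT and 5 below, and 4 of the 15 were not called. Over all genes the ranges were separate in 18.9%, with null above WT in 10.1% and below in 8.76%. The number of members called higher was 4 without male null 2, 3 without female null 1, 3 without male WT 1 and 10 without female WT 1, while 3.93%, 4.01%, 4.27% and 7.47% of all genes were called higher in those fits. The number called lower was 2 without male null 2, female null 1, female null 2 or male WT 2, while 2.73%, 2.74%, 3.61% and 4.24% of all genes were. It was 3 without female WT 1, with 6.06% of all genes.

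**Figure D1:**
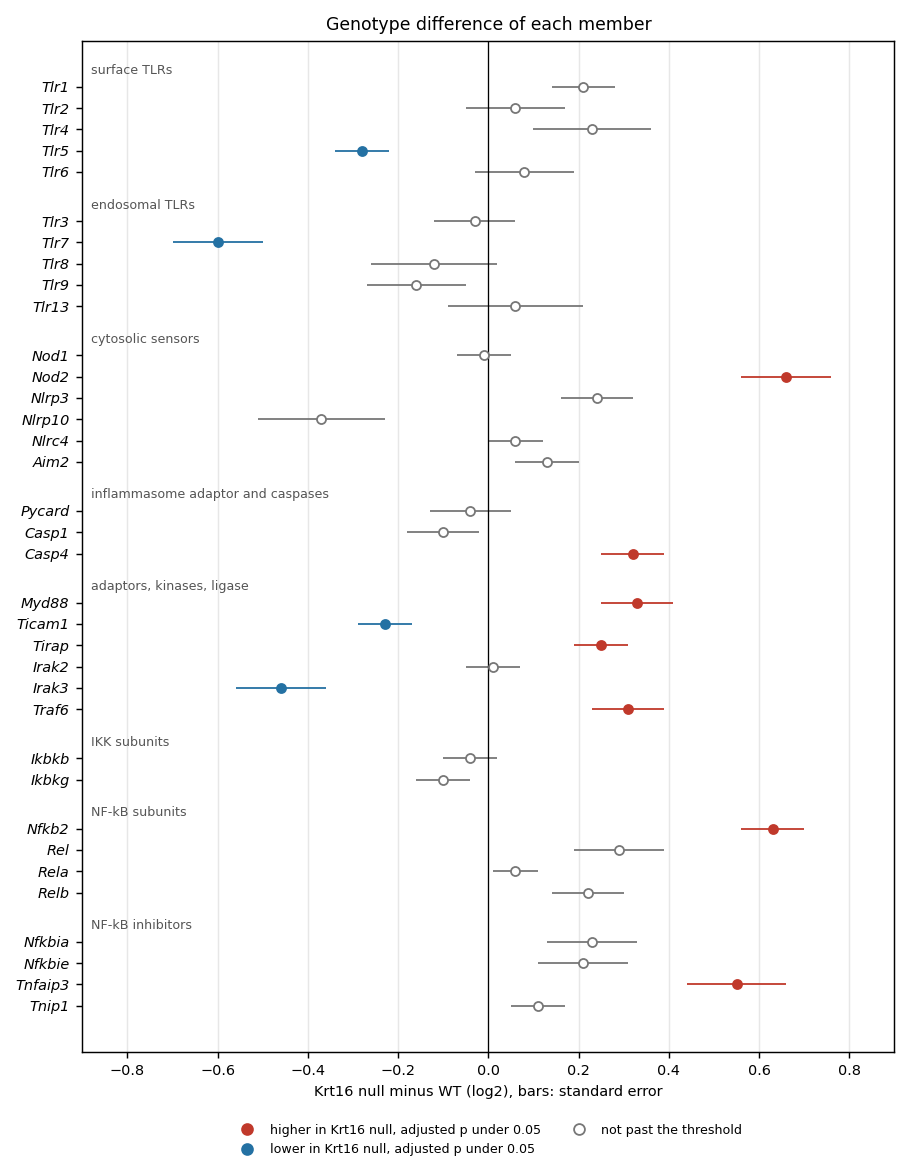
Krt16 null minus WT difference on the log2 scale for each of the 35 members, grouped by role. Points are limma estimates with sex as a covariate, bars are standard errors, and filled points passed an adjusted p of 0.05: 7 lie to the right of 0, up to 0.66 for Nod2, and 4 to the left, down to -0.60 for Tlr7.

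Several members are known targets of NF-kB, so their promoters were searched for the kappa-B consensus. The windows, from RefSeq on build GRCm38.p6, run from 250 bases before a start site to 50 after it. The search used the degenerate 10-base kappa-B consensus on both strands, with overlapping matches counted. Of the 38 members, 32 had at least 1 window, 46 windows in all, and 15 windows (32.6%) held a match, against 8.46% of 32851 windows of all genes. By gene, 11 of 32 members (34.4%) held a match, against 9.55% of 27025 genes. They were 3 of 7 members called higher (Casp4, Nfkb2 and Tnfaip3), 0 of the 3 called lower that had a window, 7 of 20 not called and 1 of 2 not measured. A match is a description of the letters, not a site in use. Windows of Nfkb2, Tnfaip3 and Casp4, which rose, and of the inhibitor genes Nfkbia and Tnip1, which were not called, are printed with matches in capitals so that the same motif can be seen on both sides of the threshold.
Nfkb2, chr19:46304487-46304786, plus strand: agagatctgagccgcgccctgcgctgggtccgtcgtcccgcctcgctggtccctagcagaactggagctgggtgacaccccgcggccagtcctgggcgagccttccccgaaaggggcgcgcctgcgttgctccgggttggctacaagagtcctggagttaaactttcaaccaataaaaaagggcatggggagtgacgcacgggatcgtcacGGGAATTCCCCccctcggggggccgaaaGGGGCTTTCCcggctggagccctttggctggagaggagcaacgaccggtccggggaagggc
Nfkb2, later start, chr19:46305445-46305744, plus strand: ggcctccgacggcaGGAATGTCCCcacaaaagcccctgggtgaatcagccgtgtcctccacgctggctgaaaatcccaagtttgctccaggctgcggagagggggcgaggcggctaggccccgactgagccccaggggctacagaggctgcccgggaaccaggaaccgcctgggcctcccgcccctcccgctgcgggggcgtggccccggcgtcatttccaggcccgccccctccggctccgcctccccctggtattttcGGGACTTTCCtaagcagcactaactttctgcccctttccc
Tnfaip3, chr10:19015361-19015660, minus strand: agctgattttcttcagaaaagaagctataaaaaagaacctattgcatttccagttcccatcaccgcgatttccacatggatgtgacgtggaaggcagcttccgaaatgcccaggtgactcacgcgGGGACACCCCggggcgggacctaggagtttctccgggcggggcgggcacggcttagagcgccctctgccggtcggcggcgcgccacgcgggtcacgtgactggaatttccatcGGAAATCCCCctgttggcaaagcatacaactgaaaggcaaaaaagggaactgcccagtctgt
Casp4, chr9:5308599-5308898, plus strand: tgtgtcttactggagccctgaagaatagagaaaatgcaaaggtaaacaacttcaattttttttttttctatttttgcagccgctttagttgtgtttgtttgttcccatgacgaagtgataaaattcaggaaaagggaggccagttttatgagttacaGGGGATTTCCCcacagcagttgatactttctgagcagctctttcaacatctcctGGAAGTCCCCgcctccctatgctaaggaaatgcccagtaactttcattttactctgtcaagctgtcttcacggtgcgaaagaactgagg
Nfkbia, chr12:55492598-55492897, minus strand: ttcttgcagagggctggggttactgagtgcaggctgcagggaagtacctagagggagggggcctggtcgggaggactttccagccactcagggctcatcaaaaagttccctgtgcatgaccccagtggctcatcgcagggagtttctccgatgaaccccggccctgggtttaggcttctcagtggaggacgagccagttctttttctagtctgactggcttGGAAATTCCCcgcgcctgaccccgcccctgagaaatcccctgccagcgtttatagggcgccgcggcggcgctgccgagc
Tnip1, chr11:54962891-54963190, minus strand: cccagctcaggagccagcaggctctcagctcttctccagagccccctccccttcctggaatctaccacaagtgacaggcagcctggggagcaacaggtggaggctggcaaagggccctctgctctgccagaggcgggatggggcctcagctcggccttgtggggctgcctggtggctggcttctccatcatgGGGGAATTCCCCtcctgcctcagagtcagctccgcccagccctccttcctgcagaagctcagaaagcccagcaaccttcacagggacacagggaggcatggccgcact

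In the first Nfkb2 window the matches began 39, 38 and 11 bases before the start, and in the later window a match to a stricter spelling of the consensus stood after the start. The matches in the printed Tnfaip3 window began 125 and 12 bases upstream, while its other window, chr10:19011914-19012213, held 0. In the printed Casp4 window the matches began 93, 92 and 39 bases upstream, the first 2 of them overlapping. The unprinted windows of Nfkb2 and Casp4 overlap printed ones and hold only matches already marked there. Nfkbia held 1 match 29 bases upstream, and Tnip1 held overlapping matches beginning 58, 57 and 56 bases upstream.

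**Figure D2:**
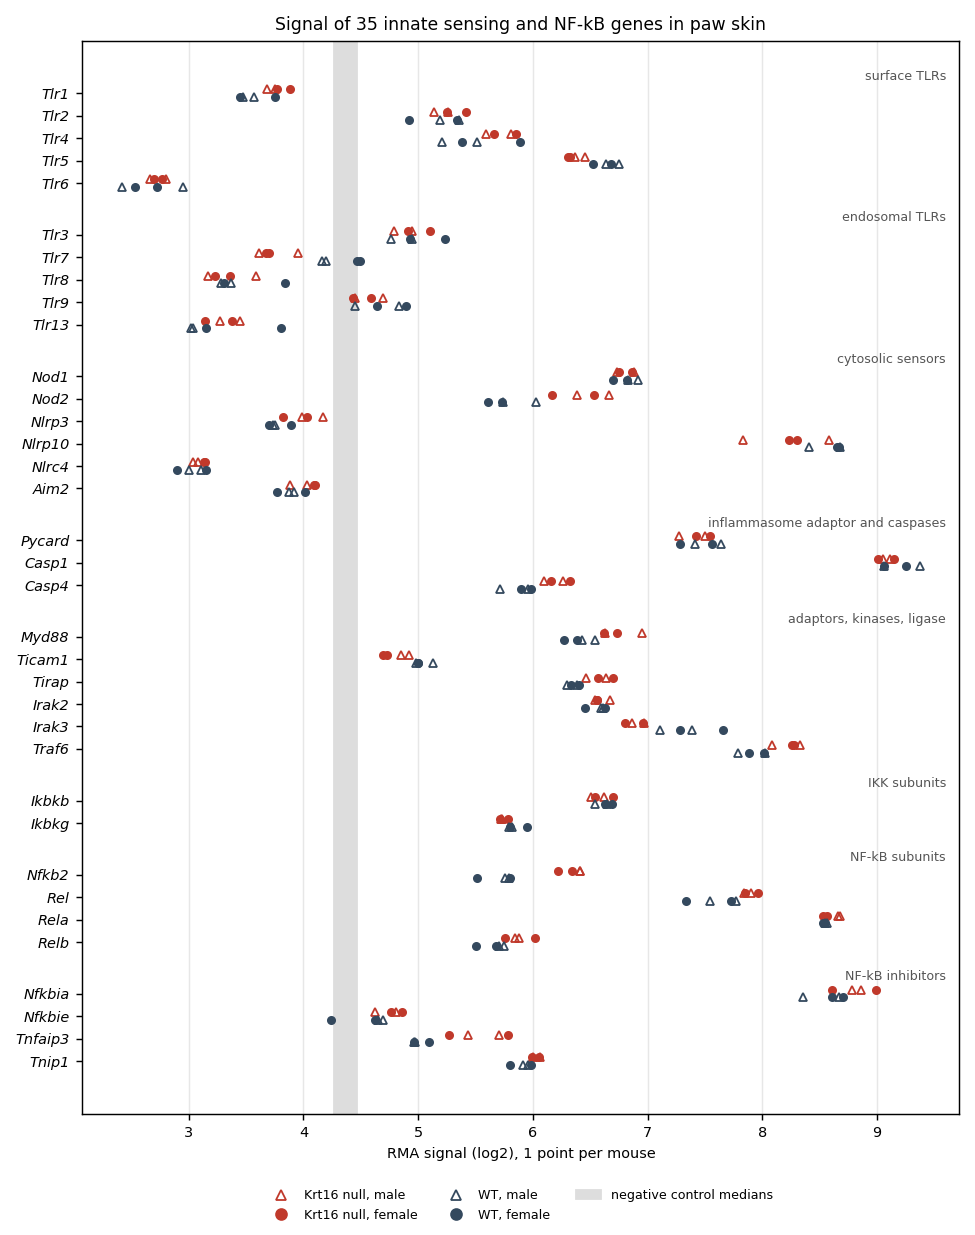
RMA signal on the log2 scale (horizontal axis) of each member on every array, grouped by role, with Krt16 null arrays (red) above WT arrays (dark) in each row. Triangles are males, circles are females, and the grey band spans the negative control medians of 4.26 to 4.46; 7 members lie under the negative control median on every array.

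The surface TLRs recognise bacterial lipids and proteins, TLR2 with TLR1 or TLR6 the lipopeptides, TLR4 lipopolysaccharide and TLR5 flagellin. Tlr5 alone of these 5 was called. Its signal was 6.37 and 6.45 in null males and 6.31 and 6.32 in null females, against 6.64 and 6.75 in WT males and 6.68 and 6.52 in WT females. All null arrays lay below all WT arrays. The difference was -0.28 (SE 0.06, adjusted p = 0.0135), and it stayed called whichever array was left out (-0.31 to -0.25).

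Tlr4 was 5.59 to 5.85 on null arrays and 5.21 to 5.89 on WT arrays, with female WT 1 the highest of all 8. The groups overlapped through that array, and the difference of 0.23 was not called (adjusted p = 0.282). Without female WT 1 it was 0.36 (adjusted p = 0.0388). Tlr1 was 3.68 to 3.88 on null arrays and 3.45 to 3.75 on WT arrays, a difference of 0.21 (adjusted p = 0.0982) that was 0.27 without female WT 1 (adjusted p = 0.0371). Tlr1 and Tlr6 lay under the negative control median on every array, so sizes there are not exact. Tlr2 differed by 0.06 (adjusted p = 0.775) and Tlr6 by 0.08 (adjusted p = 0.731), neither past the threshold.

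Of the endosomal TLRs, which detect nucleic acids, Tlr7 fell. TLR7 recognises single-stranded RNA. Its signal was 3.95 and 3.61 in null males and 3.67 and 3.70 in null females, against 4.20 and 4.16 in WT males and 4.47 and 4.49 in WT females. All null arrays lay below all WT arrays. The 4 null arrays and 2 of the 4 WT arrays lay under their own negative control median. The difference was -0.60 (SE 0.10, adjusted p = 0.00618), the largest fall among the members, and its size is not exact at this signal. It was called without each array in turn, at -0.71 to -0.55.

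The other endosomal receptor genes were not called. Tlr9, for unmethylated DNA, differed by -0.16 (adjusted p = 0.386), Tlr8 by -0.12 (adjusted p = 0.674), Tlr3, for double-stranded RNA, by -0.03 (adjusted p = 0.876) and Tlr13, a mouse receptor for bacterial ribosomal RNA, by 0.06 (adjusted p = 0.876). Tlr8 and Tlr13 lay under the negative control median on every array. Female WT 1 was the highest array for both, at 3.84 and 3.80. Without it the differences were 0.02 for Tlr8 and 0.24 for Tlr13, both still uncalled.

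Macrophage markers moved beside Tlr7. Of 10 listed genes 9 were measured; 2 fell (Cd163 by 0.97 and C1qc by 0.59), the other 7 did not pass, and the median was -0.40. Their summed linear signal was 602 to 1172 in null skin and 1026 to 1840 in WT skin, highest in female WT 1 and at most 1154 in the other WT arrays. Without that array Cd163 was still called (-0.88, adjusted p = 0.0292) and C1qc was not (-0.49, adjusted p = 0.0784). The defining markers Cd68 (difference 0.14) and Adgre1 (-0.10) were not called and lay above the negative controls. None of the 5 listed genes of plasmacytoid dendritic cells, another known source of Tlr7, was called by limma with all 8 arrays. Of these genes 2, Ccr9 (-0.26, adjusted p = 0.124) and Tcf4 (-0.19, adjusted p = 0.0919), were lower with an unadjusted p under 0.05. Without female WT 1, Ccr9 was called lower (-0.34, adjusted p = 0.0438) and Tcf4 was not called (-0.16, adjusted p = 0.175). Siglech, the defining marker of plasmacytoid dendritic cells, averaged 4.17 in both genotypes. It was above its own negative control median on 0 of 4 null and 1 of 4 WT arrays. The B cell marker Ms4a1 was 3.05 in null skin and 2.95 in WT skin. The part of these cells in the lower Tlr7 signal was not tested, and in whole skin fewer cells of a type and less RNA per cell cannot be told apart.

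Nod2 showed the largest rise among the members. NOD2 is a cytosolic sensor of muramyl dipeptide from bacterial cell walls and signals to NF-kB. Its signal was 6.38 and 6.66 in null males and 6.53 and 6.17 in null females, against 5.74 and 6.03 in WT males and 5.61 and 5.73 in WT females. The lowest null array, female null 2, was above the highest WT array, male WT 2. The difference was 0.66 (SE 0.10, adjusted p = 0.00448), or 1.58-fold, and it was called without each array in turn, at 0.58 to 0.72. Its relative Nod1, a sensor of another cell wall peptide, was 6.73 to 6.88 in null skin and 6.70 to 6.92 in WT skin, a difference of -0.01 (SE 0.06, adjusted p = 0.934).

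The inflammasome sensor genes did not pass the threshold. Nlrp3, whose product responds to ion fluxes and damage, was 3.82 to 4.17 on null arrays and 3.70 to 3.89 on WT arrays, a difference of 0.24 (SE 0.08, adjusted p = 0.0976) that was 0.30 without female WT 1 (adjusted p = 0.0414). Only female null 2 lay within the WT range. Aim2, for cytosolic DNA, differed by 0.13 (adjusted p = 0.295) and Nlrc4, for flagellin and secretion systems, by 0.06 (adjusted p = 0.645). These 3 genes were under the negative control median on every array.

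Nlrp10, a short NLR protein without leucine-rich repeats that is known from epidermal keratinocytes, gave strong signal. It was 8.58 and 7.83 in null males and 8.23 and 8.30 in null females, against 8.41 and 8.68 in WT males and 8.65 and 8.67 in WT females. Male null 1 lay within the WT range and the other 3 null arrays below it. The difference of -0.37 (SE 0.14) was not called (adjusted p = 0.132), and without male null 1 it was -0.52 (adjusted p = 0.0121).

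Downstream of the inflammasome sensors, Casp4 rose while the other 2 measured components did not pass the threshold. Casp4 encodes the mouse caspase-11, which binds intracellular lipopolysaccharide and cleaves gasdermin D. Its signal was 6.10 and 6.26 in null males and 6.32 and 6.16 in null females, against 5.71 and 5.96 in WT males and 5.90 and 5.98 in WT females. All null arrays lay above all WT arrays. The difference was 0.32 (SE 0.07, adjusted p = 0.0233), and it was 0.28 without male null 2 (adjusted p = 0.0828), 0.29 without female null 1 (adjusted p = 0.0806) and 0.27 without male WT 1 (adjusted p = 0.069).

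Casp1, the caspase that matures interleukin 1 beta, was 9.01 to 9.15 on null arrays and 9.06 to 9.37 on WT arrays. The groups overlapped, with a difference of -0.10 (SE 0.08, adjusted p = 0.479). The adaptor gene Pycard, which links sensors to caspase-1, was 7.27 to 7.54 on null arrays and 7.28 to 7.64 on WT arrays, a difference of -0.04 (SE 0.09, adjusted p = 0.841).

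Of the 6 measured adaptor, kinase and ligase genes, 3 rose and 2 fell. Myd88 and Tirap, which join TLRs to the IRAK kinases, and Traf6, the ubiquitin ligase below them, rose, and Ticam1, the adaptor of the other branch, fell. Myd88 was 6.63 and 6.95 in null males and 6.73 and 6.62 in null females, against 6.43 and 6.54 in WT males and 6.38 and 6.27 in WT females. The null arrays all lay above the WT arrays, by 0.33 on average (SE 0.08, adjusted p = 0.024). The call was lost without male null 2 (0.27, adjusted p = 0.0744), female null 1 (0.30, adjusted p = 0.0829), male WT 1 (0.31, adjusted p = 0.0756) or female WT 2 (0.30, adjusted p = 0.0606).

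Traf6 was 8.33 and 8.08 in null males and 8.26 and 8.28 in null females, against 7.79 and 8.02 in WT males and 7.88 and 8.01 in WT females. The groups did not overlap, though male null 2 was close to male WT 2. The difference was 0.31 (SE 0.08, adjusted p = 0.0277), and after each array was centred on its median its adjusted p was 0.0526. It was also not called without male null 1 (0.26, adjusted p = 0.0669), female null 1 (0.31, adjusted p = 0.0782), female null 2 (0.30, adjusted p = 0.0716) or male WT 1 (0.27, adjusted p = 0.087).

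Tirap was 6.46 and 6.64 in null males and 6.57 and 6.70 in null females, against 6.38 and 6.30 in WT males and 6.40 and 6.33 in WT females. Every null array was above every WT array, with a difference of 0.25 (SE 0.06, adjusted p = 0.0329). Leaving out male null 2, female null 1, female null 2, male WT 1, male WT 2 or female WT 2 gave 0.21, 0.26, 0.21, 0.27, 0.23 and 0.23, with adjusted p from 0.059 to 0.111.

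Ticam1 was 4.85 and 4.92 in null males and 4.73 and 4.69 in null females, against 4.98 and 5.13 in WT males and 5.0 in both WT females. The null arrays were all lower, by a small margin, at a difference of -0.23 (SE 0.06, adjusted p = 0.0357). The call held in 1 of the 8 fits with an array left out, that without male WT 1. It was lost without male null 1 (-0.23), male null 2 (-0.26), female null 1 (-0.23), female null 2 (-0.21), male WT 2 (-0.21), female WT 1 (-0.22) or female WT 2 (-0.22), with adjusted p from 0.0637 to 0.1045. Both Tirap and Ticam1 also missed the threshold when all non-control probe sets were tested (adjusted p = 0.0619 and 0.0714).

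Irak3, whose product IRAK-M restrains TLR signalling and is known from monocytes and macrophages, fell. It was 6.97 and 6.86 in null males and 6.96 and 6.80 in null females, against 7.11 and 7.39 in WT males and 7.66 and 7.28 in WT females. All null arrays lay below all WT arrays, and the WT arrays spread more widely (SD 0.23 against 0.08 in null skin). The difference was -0.46 (SE 0.10, adjusted p = 0.0206). Without male null 2 it was -0.47 (adjusted p = 0.0599), without female null 1 -0.47 (adjusted p = 0.0609), without female null 2 -0.41 (adjusted p = 0.0594) and without male WT 2 -0.43 (adjusted p = 0.0608). Its highest array, female WT 1, was also the highest for the macrophage markers given above, whose part in this difference was not tested. Without that array the difference was -0.36 and still called (adjusted p = 0.0204). The kinase gene Irak2 was 6.54 to 6.67 in null skin and 6.45 to 6.63 in WT skin, with a difference of 0.01 (SE 0.06, adjusted p = 0.927).

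The measured IKK subunits were close in both genotypes. Ikbkb, the catalytic subunit that phosphorylates IkB, differed by -0.04 (SE 0.06, adjusted p = 0.777). The regulatory subunit gene Ikbkg, which encodes NEMO, was 5.71 to 5.78 on null arrays and 5.79 to 5.95 on WT arrays. The highest null array nearly met the lowest WT array, and the difference of -0.10 was not called (SE 0.06, adjusted p = 0.297).

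Among the NF-kB subunit genes Nfkb2 rose. Its product is the precursor of the non-canonical DNA-binding subunit. The signal was 6.41 and 6.41 in null males and 6.34 and 6.22 in null females, against 5.79 and 5.76 in WT males and 5.80 and 5.51 in WT females. The lowest null array lay well above the highest WT array. The difference was 0.63 (SE 0.07, adjusted p = 0.000875), 1.55-fold, with the smallest adjusted p of the members, and it was called without each array in turn, at 0.57 to 0.69. The 2 Nfkb2 windows printed above hold kappa-B matches.

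Relb, the non-canonical partner, was 5.88 and 5.84 in null males and 6.02 and 5.76 in null females, against 5.75 and 5.70 in WT males and 5.68 and 5.50 in WT females. The groups did not overlap, but the difference of 0.22 (SE 0.08) was not called (adjusted p = 0.0975). Rel, the c-Rel subunit gene, was 7.84 to 7.96 on null arrays and 7.33 to 7.77 on WT arrays, again without overlap. Its difference of 0.29 (SE 0.10) was not called (adjusted p = 0.0773), and with same-numbered mice of 1 sex as pairs it was (adjusted p = 0.0335). Rela, which encodes the canonical RelA subunit, was 8.53 to 8.68 in null skin and 8.53 to 8.56 in WT skin, a difference of 0.06 (SE 0.05, adjusted p = 0.547).

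Of the 4 inhibitor genes, Tnfaip3 rose. It encodes A20, an enzyme that edits ubiquitin chains and shuts off signalling to NF-kB. Its signal was 5.70 and 5.43 in null males and 5.78 and 5.27 in null females, against 4.96 and 4.97 in WT males and 4.96 and 5.09 in WT females. The WT arrays were tight and the null arrays spread upward from them without overlap (SD 0.24 in null skin, 0.06 in WT skin). The difference was 0.55 (SE 0.11, adjusted p = 0.0135), 1.46-fold, and remained called without each array in turn, at 0.46 to 0.66.

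Nfkbia, which encodes IkB alpha, was 8.61 to 8.99 on null arrays and 8.35 to 8.70 on WT arrays. Female null 2 lay within the WT range, and the difference of 0.23 was not called (SE 0.10, adjusted p = 0.19). The match in the Nfkbia window printed above is to the strict spelling. Nfkbie, for IkB epsilon, differed by 0.21 (SE 0.10, adjusted p = 0.235). Tnip1, whose product binds A20, was 5.99 to 6.06 in null skin and 5.80 to 5.98 in WT skin, a difference of 0.11 (SE 0.06, adjusted p = 0.271) without overlap of the groups.

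**Figure D3:**
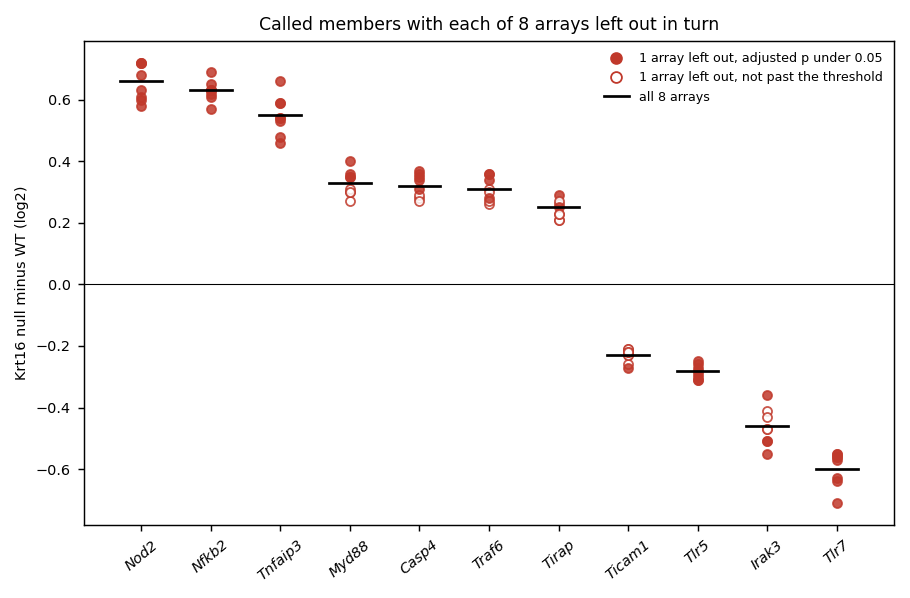
Krt16 null minus WT difference on the log2 scale for the 11 called members, with all 8 arrays (black lines) and with each array left out in turn (points, filled where the adjusted p was under 0.05). No point changes sign; Nod2, Nfkb2, Tnfaip3, Tlr5 and Tlr7 are filled throughout, and Ticam1 has 1 filled point.

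Effects in males and females were set side by side from a fit of 4 group means, with 2 mice in each. The sign was the same in both sexes for 29 of the 35 members (82.9%) and for 65.7% of all genes. It was the same for all 11 called members, as for each of the 3997 called genes of the whole array, so the call itself fixes it. Nfkb2 differed by 0.63 in males and 0.62 in females, Nod2 by 0.64 and 0.68, and Tnfaip3 by 0.60 and 0.50. The widest gap among called members was in Tlr7, with -0.40 in males and -0.80 in females. By limma's interaction test 0 of the 35 members differed between the sexes at an adjusted p under 0.05, against 0.00652% of all genes. In that test 1 member, Tlr7, had an unadjusted p under 0.05, and its adjusted p by limma was 0.974. With 2 mice in each group this comparison has a wide error, the interaction SE for Tlr7 being 0.16.

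**Figure D4:**
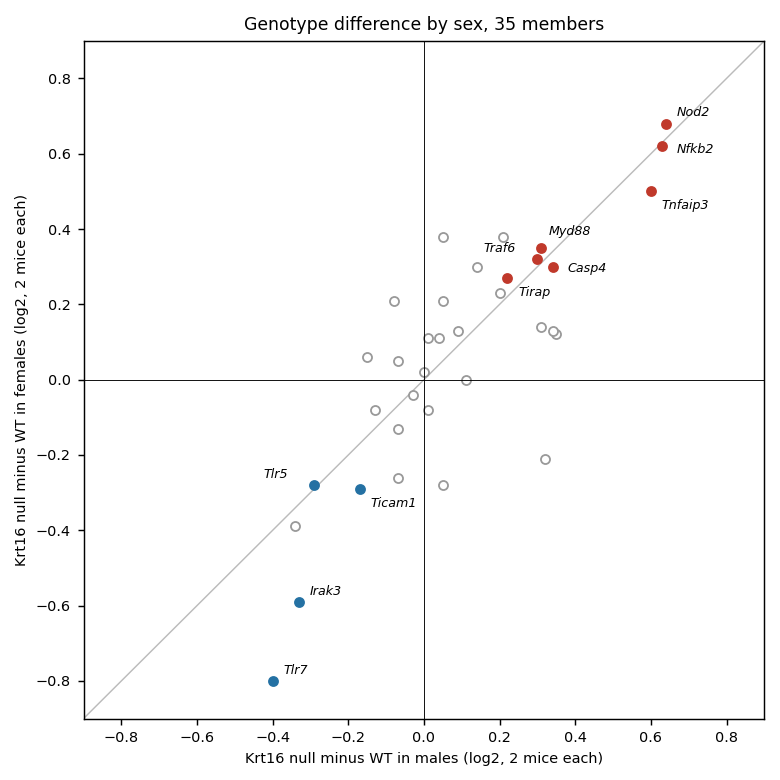
Krt16 null minus WT difference on the log2 scale in males (horizontal axis) and females (vertical axis) for 35 members, from 2 mice in each group. The 11 called members are named; like every called gene they have 1 sign in both sexes. Tlr7, at -0.40 and -0.80, is farthest of them from the diagonal, and the grey diagonal marks equal differences.

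Spread between mice was small for most members. The median SD was 0.11 over null mice and 0.13 over WT mice, and 22 members had the larger SD in WT skin against 10 in null skin.

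The pathway beyond the members was read from 5 further lists, 83 distinct genes in all, of which 21 rose (25.3%, against 7.06% of all genes) and 5 fell (6.02%, against 5.97%). These lists too were chosen with earlier results of these data known. Of 9 co-receptors and remaining TLRs, 2 fell: Lbp, the lipopolysaccharide binding protein (5.97 ± 0.16 in null skin, 6.83 ± 0.39 in WT skin, difference -0.85, adjusted p = 0.0114), and the scavenger receptor Cd36 (-0.66, adjusted p = 0.00971). None of the list was called higher by limma, and 1 had an unadjusted p under 0.05, Cd14, the co-receptor of TLR4, with 0.38 (adjusted p = 0.104), named after its value was seen. Of 17 other cytosolic sensors measured, 2 rose. They were Sting1, the adaptor of the cytosolic DNA pathway (0.94, SE 0.17, adjusted p = 0.00964), and Nlrx1, a mitochondrial NLR (0.32, adjusted p = 0.0279). Sting1 was 5.89 to 6.52 on null arrays and 4.93 to 5.62 on WT arrays. Female WT 1 was the highest WT array for it, and the others were 4.93 to 5.08. Without female WT 1 the Sting1 difference was 1.14 (adjusted p = 0.00026).

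Of 21 other adaptors and kinases, 5 rose and 2 fell. The largest rises were Map3k14, the kinase of the non-canonical branch (0.52, SE 0.08, adjusted p = 0.00354), the paracaspase Malt1 (0.42, SE 0.07, adjusted p = 0.00471) and the necroptosis kinase Ripk3 (0.37, adjusted p = 0.0148). The falls were Peli2, a ubiquitin ligase of IRAK complexes (-0.37, adjusted p = 0.00723), and Tab2, a partner of the kinase TAK1 (-0.20, adjusted p = 0.0495). Among 15 other inhibitors and atypical IkB proteins, Bcl3 rose by 0.98 (SE 0.08, adjusted p = 0.000173) and Nfkbiz, an IkB protein of the nucleus, by 0.58 (SE 0.09, adjusted p = 0.00477). Bcl3, which binds the products of Nfkb1 and Nfkb2 in the nucleus, was 6.06 to 6.36 on null arrays and 5.12 to 5.36 on WT arrays. Sharpin, of the linear ubiquitin ligase, fell by 0.20 (adjusted p = 0.0414), but its difference with female WT 1 left out was -0.19 (adjusted p = 0.0787).

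Of 22 genes known as NF-kB targets, 13 rose, with a median difference of 0.43. None was called lower by limma, and 1 lower gene, Sod2, had an unadjusted p under 0.05 (-0.19, adjusted p = 0.0772), also named after its value was seen. The largest rises were the cytokine gene Il1b (2.22, SE 0.37, adjusted p = 0.00566), Ptgs2 of prostaglandin synthesis (1.81, SE 0.52, adjusted p = 0.0493) and the siderophore-binding Lcn2 (1.49, SE 0.38, adjusted p = 0.0317). Il1b was 4.73 to 6.68 on null arrays and 3.42 to 3.92, under the negative controls, on WT arrays, so its fold is not exact. Cxcl2, Cxcl5, Saa3 and Traf1 also rose from under the negative controls on every WT array. Tnf was above them on 1 WT array, so these folds are not exact either. Without female WT 1, 12 of the list were called higher by limma. Cxcl5 (adjusted p = 0.063) and Saa3 (adjusted p = 0.0528) were lost, and Icam1 (adjusted p = 0.0183) was gained. Lcn2 overlapped between the groups, at 6.43 to 7.39 on null arrays and 4.73 to 6.65 on WT arrays, with female WT 1 the highest WT array. The other 3 WT arrays were 4.73 to 5.29, and the difference with female WT 1 left out was 1.92 (adjusted p = 0.00127).

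**Figure D5:**
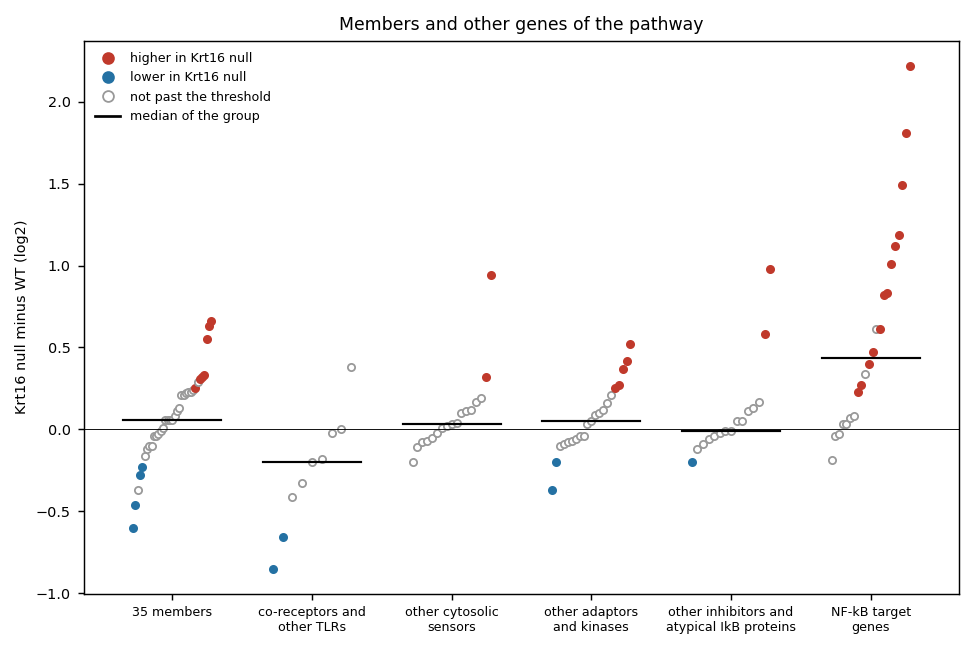
Krt16 null minus WT difference on the log2 scale for the 35 members and 5 further gene lists, 1 point per gene, filled where the adjusted p was under 0.05, with the median of each group as a black line. The NF-kB target list has the highest median, 0.43, and its upper end, Il1b, is at 2.22, while the highest member is at 0.66.

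Cell type markers moved with genotype beside these results. Of 9 measured Langerhans and dendritic cell genes, 5 rose, with Itgax up by 0.79, and their summed linear signal was 589 to 710 in null skin and 469 to 497 in WT skin. Itgax was above the negative controls on 1 of 4 WT arrays. Flt3, another of the 5, was under them on every array, so the sizes of both are not exact. The defining marker Cd207 was 4.81 in WT skin and rose by 0.29, a call that was not made without female WT 1 (0.31, adjusted p = 0.0553). Of 8 neutrophil genes, 3 rose, S100a8 by 5.69, S100a9 by 5.40 and Cxcr2 by 0.44, the first 2 of which keratinocytes also express. Without female WT 1 the differences of S100a8 and S100a9 were 6.71 and 6.39. The summed linear signal of that list was 3415 to 5421 in null skin and 179 to 1081 in WT skin, at most 225 in the WT arrays other than female WT 1. S100a8 and S100a9 made up 94.4% to 96.3% of the sum in null skin. The other 6 genes summed to 192 to 231 in null skin and 156 to 285 in WT skin, at most 161 without female WT 1. Retnlg (-0.19), Mpo (-0.16) and Elane (-0.06) were not called. Without female WT 1 these differences were 0.35, 0.10 and 0.15, again uncalled. Csf3r was not called (0.52, adjusted p = 0.0878), but without female WT 1 it was called higher (0.72, adjusted p = 0.0051). Ly6g, a defining neutrophil marker, was 5.08 in null skin and 5.07 in WT skin, and was above the negative controls on all arrays. Of 5 endothelial genes, Pecam1 and Vwf rose, each by 0.27, and 4 of the 5 were higher with an unadjusted p under 0.05. Of 6 mast cell genes none was called by limma, but 4 were lower with an unadjusted p under 0.05, Cpa3 the most (-1.22, adjusted p = 0.0745), and the median was -0.46. Dcn fell by 0.83 among 5 fibroblast genes, a call not made without female WT 1 (-0.72, adjusted p = 0.075). Of 8 keratinocyte genes, Dsg3 alone was called, with a rise of 1.10 (adjusted p = 0.00116). Dsg3 was also called without female WT 1 (adjusted p = 0.00115). Of 5 T cell genes, Cd3g alone was called, higher by 0.20 (adjusted p = 0.0387), at signal under the negative controls on every array. Without female WT 1 Cd3g was not called (0.22, adjusted p = 0.0591). Skeletal muscle genes were lower in null skin: 8 of 10 fell, and the summed linear signal was 3662 to 5488 in null skin against 6497 to 10950 in WT skin. The part of these cells in the members' differences was not tested. With the muscle mean as a covariate beside sex, which together hold 70.2% of the genotype term, Nfkb2 (0.79, SE 0.11, adjusted p = 0.0158) was the only member called. The other 10 kept their direction with adjusted p from 0.279 to 0.665, and over all genes 0.998% were called higher and 0.457% lower in that fit. Their sizes did not move alike. The differences were 0.52 for Tnfaip3, 0.25 for Tirap, -0.25 for Ticam1, -0.24 for Tlr5, 0.25 for Traf6 and 0.24 for Myd88, each within 1.5 times, in log2 units, of the value without the covariate. They were 0.38 for Nod2, 0.16 for Casp4, -0.22 for Irak3 and -0.37 for Tlr7, each smaller by more than 1.5 times.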

How the data were processed

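Total RNA of forepaw skin was hybridised to 8 single-colour Affymetrix arrays, 1 per mouse. The deposited values are log2 signals per probe set that the authors made with RMA in Partek, per the submitters' processing notes; for the array annotation version and genome build the sources used here give nothing. RMA's quantile step holds array distributions alike, so an even shift of all genes would not show. Arrays give no read depth; their number limits the precision.

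Of 72688 probe sets, 6732 controls were left out, 32750 were annotated and 31216 named 1 gene. The brightest probe set stood for a gene, giving 30663 genes, and 1394 symbols were updated through RefSeq's gene table. limma 3.58.1 in R 4.3.3 was fitted to all genes with an intensity trend and sex as covariate, and p-values were adjusted over all of them. Genotype differences within each sex, and the gap between them, came from a fit of 4 group means. The fit was tested on simulated data. Tables and figures used Python 3.11.15, pandas 2.3.3, numpy 2.4.6 and matplotlib 3.10.9.

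The members and lists were chosen with earlier results of these data known. All members are named, and from each other pathway list the 3 largest called changes in each direction. The labels do not say that same-numbered mice share a litter or day. After group means were removed, the correlation of same-numbered null and WT arrays was 0.316 for males and 0.115 for females, so a fit with these pairs as a block was also made. Alternatives changed the normalization, sex term, filter, probe set rule, variance prior, array weights, arrays used and a muscle covariate.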

Additional observations from a re-analysis of the deposited data

Results flagged for a closer look

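In 7 of 70 groups of 4 arrays, 1 array lay further from the other 3 than Dixon's 95% limit allows, where chance gives about 1 in 20. All 7 were WT arrays. In female WT 1, Tlr8 was 3.84, against 3.28 to 3.37 in the other WT arrays, and Tlr13 was 3.80, against 3.02 to 3.15. In male WT 1, Nlrp10 was 8.41, against 8.65 to 8.68 in the others. Female WT 2 was high for Ikbkg, at 5.95 against 5.79 to 5.82, and for Tnfaip3, at 5.09 against 4.96 to 4.97. It was low for Nfkb2, at 5.51 against 5.76 to 5.80, and for Nfkbie, at 4.24 against 4.62 to 4.69. Without female WT 2 the difference was 0.57 for Nfkb2 and 0.59 for Tnfaip3, both still called.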

How the results depend on the processing

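All 11 called members kept their direction under every alternative run. With same-numbered mice as a replicate block, 8 members were higher and 4 lower, and 21 and 4 other pathway genes (8.3% and 6.56% of all genes). Rel was gained in that fit (0.29, adjusted p = 0.0335), and no other member's call changed. A 2-fold minimum left 0 members higher and 0 lower, and 6 and 0 other pathway genes (0.626% and 0.225% of all genes). Males alone gave 2 and 0 members and 8 and 0 other pathway genes, females alone 0 and 1, and 1 and 0, with 2 mice in each group (2.62% and 1.26% of all genes in males, 0.75% and 0.453% in females). The muscle covariate left 1 and 0 members, and 3 and 0 other pathway genes (0.998% and 0.457% of all genes). Other pathway genes called lower were 3 after median centring, where 5.06% of all genes were lower. They were also 3 over all non-control probe sets, of which 3.43% were lower. With 1 array left out, members called higher were 3 to 10 and lower 2 to 4, and other pathway genes 12 to 20 and 3 to 4. Over all genes, 3.93% to 7.47% were called higher and 2.73% to 6.06% lower in the same fits. Array weights added Nlrp3 (0.28, adjusted p = 0.0462) and Nlrp10 (-0.48, adjusted p = 0.0423). The strict kappa-B spelling was in 4 of 46 member windows (8.7%), against 0.411% of all windows. Overlapping windows of Nfkb2 held the same strict match and were each counted. By gene the spelling was in 3 of 32 members (9.38%), against 0.466% of 27025 genes. Sign changes, 26 of 787 values, fell in 12 uncalled members: Rela was -0.02 with quantile normalization repeated; Tlr2 -0.08, Tlr3 0.01 and Tlr8 0.05 in males alone; Tlr13 -0.21, Nod1 0.05 and Pycard 0.06 in females alone. With the muscle covariate Tlr8 was 0.39, Tlr9 0.18, Nod1 0.01 and Rel -0.05. With 1 array left out, differences spanned -0.03 to 0.24 for Tlr13, -0.05 to 0.03 for Nod1, -0.12 to 0.03 for Pycard, -0.03 to 0.05 for Irak2, -0.08 to 0.04 for Tlr3, -0.02 to 0.19 for Tlr6, -0.23 to 0.02 for Tlr8, -0.05 to 0.13 for Tlr2 and 0 to 0.10 for Nlrc4. Where no value shows it, the cause was not tested. Signal at or under the negative controls limits the sizes given for Tlr7 and the 7 dimmest members.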
